A study of Homo sapiens with 2 samples.

Results

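Nuclear tRNA genes were described here from stacks of overlapping small RNA reads, that is, stretches of the genome covered by reads that overlap on one strand. A stack was taken when its annotation on the read strand held a tRNA gene, when it did not lie on the mitochondrial chromosome and when it carried no miRNA name or miRNA primary transcript. These conditions kept 369 of 502547 stacks, or 0.0734% of them, with 9314766 of 68649476 reads. Each of the 369 carried exactly 1 tRNA gene name, from which isotype (the amino acid) and anticodon were read, and together they named 347 genes. The names were those of the deposited annotation on build hg19, such as chrX.tRNA4-ValTAC for tRNA number 4 of chromosome X with valine anticodon TAC.

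Small RNA was sequenced after pull-down of the FLAG tag from HEK293 T-Rex cells, a line derived from human embryonic kidney. The cells carried FLAG-tagged AGO3 or FLAG-tagged AGO2, with 1 library for each protein. The stack list gives 1 read number per stack and does not separate AGO3 from AGO2, so it gives no comparison of the proteins and no replicate error. The libraries behind the list are not named in it, and its reads exceed those of both libraries together (4667236 in AGO3 and 6674064 in AGO2). Intervals of shares and of log2 ratios are exact (Clopper-Pearson) 95% intervals that cover counting error only, and PCR copies are not known to have been removed. The 5′ adapter adds a short random barcode to each read, but its use in counting is not stated. No messenger RNA was measured, so the cell line could not be checked against marker genes.

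Transfer RNAs bring amino acids to the ribosome. RNA polymerase III makes them as precursors with a short leader and trailer, which RNase P and RNase Z remove before the CCA end is added to the 3′ end. Pieces of mature tRNA and of trailers have been found in Argonaute, the protein that carries miRNAs, and in mouse cells a tRNA-Ile transcript is known to fold into a long hairpin that Dicer cuts. Most human tRNAs have several gene copies with the same or nearly the same sequence. No source used here says how reads that match several copies were placed, so the reads of one copy are less certain than the sum over an anticodon.

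The sequences of the tRNA genes were not used here. The sequences shown are of miRBase entries that share a stack with a tRNA gene or have been linked to tRNA. These sequences come from RefSeq on build GRCh38.p14. They are given because entries of this kind hold the values by library that touch tRNA. The sequences of mir-3676 and mir-720, whose values are given below, are not shown. A final CCA, the letters that end a mature tRNA, is in capitals.
hsa-miR-4521: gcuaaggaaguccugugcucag
hsa-miR-1260a: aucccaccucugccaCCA
hsa-miR-4454: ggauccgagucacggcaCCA
hsa-miR-1260b: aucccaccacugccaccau
The mature sequences of hsa-miR-1260a and hsa-miR-4454 ended in CCA, and those of hsa-miR-4521 and hsa-miR-1260b did not.

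Nuclear tRNA stacks took 13.6% of all stack reads (13.56 to 13.58), against 77.1% in 1780 miRNA precursor stacks and 9.35% in the other 500398 stacks. A single stack held most of the tRNA reads. It lay over chrX.tRNA4-ValTAC at chrX:18692998-18693116 on the minus strand and had 6347216 reads, 68.1% of all nuclear tRNA reads (68.11 to 68.17). Without it the other 368 stacks held 2967550 reads, and the share of nuclear tRNA in the whole list was 4.76% when that stack was left out of both sums. The stacks next in rank were chr6.tRNA55-IleTAT with 1064393 reads and chr19.tRNA4-ThrAGT with 692310 reads. Both were also annotated with an exon of a noncoding transcript, which the ValTAC stack was not. The first stack had 5.96 times the reads of the second, the second 1.54 times those of the third, and the third 11.5 times those of the fourth. These 3 stacks held 87.0% of the reads, 10 stacks held 90% of them, and without the ValTAC stack it took 72 stacks to reach 90%. The median stack had 847 reads (quartiles 91 and 3615), 33 stacks had at least 10000 reads and 13 had 1 read.

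By isotype, valine tRNA led with 6550870 reads in 24 stacks, a share of 70.3%. It was followed by isoleucine with 1083621 reads (11.6%) and threonine with 786291 reads (8.44%), and no other isotype passed 1.41%. Without the chrX ValTAC stack the order at the top was isoleucine with 36.5% (36.46 to 36.57), threonine with 26.5% (26.45 to 26.55) and valine with 6.86% (6.83 to 6.89). Each of the 20 amino acids had at least 1 stack. When all 3 leading stacks were left out, 1210847 reads remained, and the order was valine with 16.8%, lysine with 10.8%, arginine with 8.59% and threonine with 7.76%, while isoleucine had 1.59%.

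**Figure D1:**
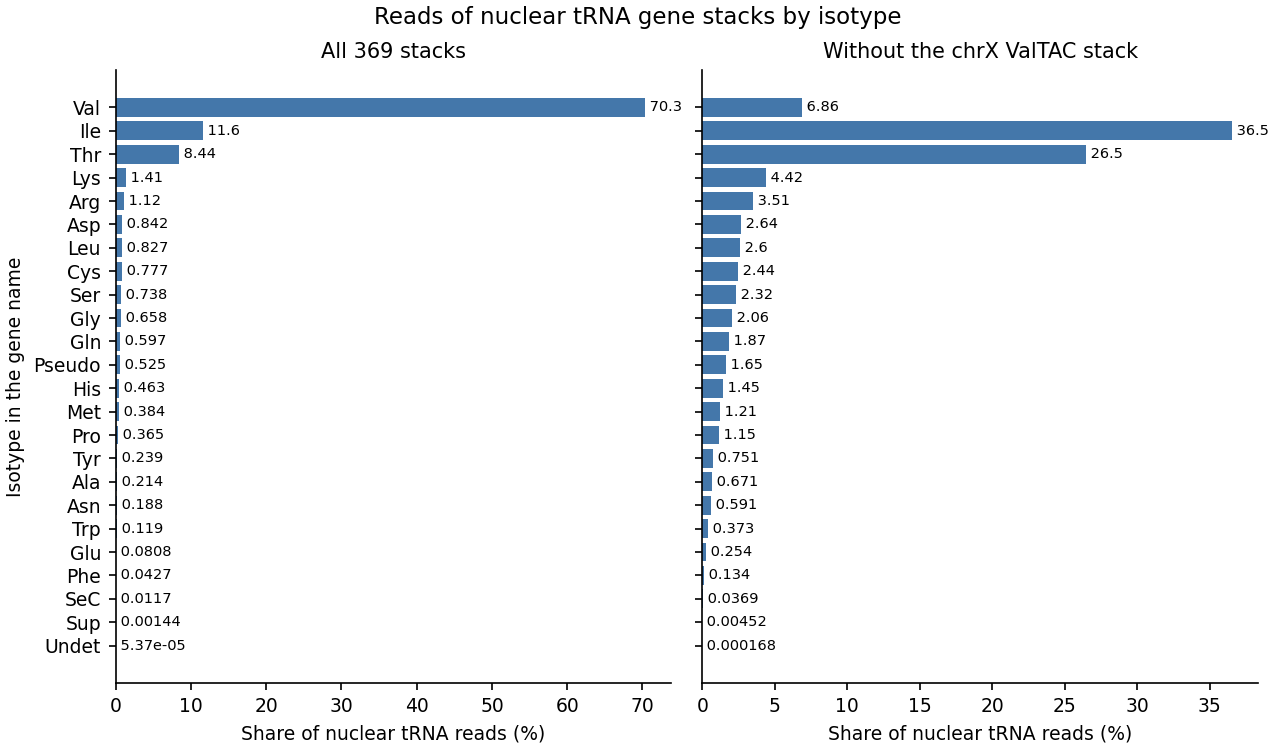
Share of nuclear tRNA reads (percent) for each isotype in the gene name, over all 369 stacks on the left and without the chrX ValTAC stack on the right; each bar is 1 isotype, in the order of its reads over all stacks. Valine stands at 70.3% on the left and 6.86% on the right, where isoleucine (36.5%) and threonine (26.5%) stand highest.

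Each of the leading isotypes rested on 1 stack, though how reads were placed among gene copies is not stated. For valine TAC, the chrX stack held 99.5% of the 6377887 reads of the anticodon. The other 4 stacks of that anticodon had 13901 reads at chr11.tRNA17-ValTAC, 9044 at chr10.tRNA6-ValTAC, 4562 at chr11.tRNA16-ValTAC and 3164 at chr6.tRNA40-ValTAC. The remaining valine anticodons were spread more evenly: CAC had 131108 reads in 11 stacks, led by chr5.tRNA6-ValCAC with 58287 and chr19.tRNA13-ValCAC with 44022, and AAC had 41875 reads in 8 stacks, led by chr5.tRNA15-ValAAC with 11058. For isoleucine TAT, the stack at chr6:27599178-27599374 held 99.8% of 1066671 reads. Its other copies had 1226 reads at chr2.tRNA5-IleTAT, 698 at chr19.tRNA10-IleTAT and 354 at chr6.tRNA29-IleTAT. The other isoleucine anticodon with stacks, AAT, had 16950 reads in 10 stacks with a highest value of 5698 at chr6.tRNA59-IleAAT. For threonine AGT, the stack at chr19:33667946-33668082 held 94.1% of 735443 reads, and its other 8 stacks had 17 to 12531 reads, the highest at chr6.tRNA135-ThrAGT. Threonine CGT had 31930 reads and TGT had 18918, and the highest of these stacks was chr16.tRNA15-ThrCGT with 16226.

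Among basic residues, lysine tRNA had 131196 reads in 17 stacks, 65944 for TTT and 65252 for CTT, and its highest stack, chr6.tRNA13-LysCTT at chr6:26556754-26556886 with 26553 reads, held 20.2% of them. The lysine stacks next in rank were chr17.tRNA2-LysTTT with 21024 reads and chr16.tRNA10-LysCTT with 20080. Arginine had 104015 reads in 25 stacks, spread over TCG (27604), TCT (26821), CCT (26512), CCG (13391) and ACG (9687). Most of the arginine TCT reads lay over chr1.tRNA86-ArgTCT (chr1:159111373-159111483) with 24921. Histidine had 43128 reads over 6 stacks that were close to each other, from 4185 at chr15.tRNA8-HisGTG to 11533 at chr6.tRNA33-HisGTG (chr6:27125863-27126040), and its median of 6499.5 reads per stack was above those of all other isotypes.

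Among acidic residues and their amides, aspartate GTC had 78424 reads, led by chr6.tRNA144-AspGTC (chr6:27551167-27551313) with 24774, chr12.tRNA10-AspGTC with 23648 and chr17.tRNA38-AspGTC with 17326. Glutamine had 55591 reads, of which 43138 were of CTG, led by chr15.tRNA7-GlnCTG (chr15:66161349-66161503) with 13526. Asparagine GTT had 17524 reads in 19 stacks, led by chr1.tRNA26-AsnGTT (chr1:148248092-148248288) with 6567. Glutamate had 7530 reads, of which chr13.tRNA4-GluCTC (chr13:42030033-42030132) held 6282. The median glutamate stack had 12 reads, the lowest median among the 20 amino acids.

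Cysteine GCA had 72371 reads in 25 stacks, and chr17.tRNA26-CysGCA (chr17:37310695-37310843) held 83.1% of them with 60138; the next had 2722 reads. Leucine had 77036 reads in 28 stacks, of which chr16.tRNA27-LeuTAG (chr16:22206909-22207120) held 47071, or 61.1%. Serine had 68755 reads in 22 stacks, led by chr10.tRNA2-SerTGA (chr10:69524235-69524389) with 21354. Glycine had 61274 reads in 19 stacks and its highest stack, chr16.tRNA25-GlyGCC (chr16:70812130-70812191), held 13.2% of them with 8058. Glycine GCC had 28345 reads and CCC 24800.

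Proline had 34008 reads in 16 stacks, led by chr16.tRNA6-ProCGG (chr16:3222023-3222150) with 7024, and tyrosine had 22273 in 16 stacks, led by chr2.tRNA2-TyrGTA (chr2:27273625-27273765) with 12138. Alanine had 19905 reads, of which chr2.tRNA13-AlaCGC (chr2:157257276-157257379) held 13227. Tryptophan had 11078 reads, led by chr17.tRNA12-TrpCCA (chr17:19411471-19411582) with 6546, and phenylalanine 3977, led by chr13.tRNA1-PheGAA (chr13:95201867-95202004) with 1503. Methionine CAT had 35778 reads in 9 stacks, led by chr6.tRNA61-MetCAT (chr6:27745661-27745754) with 9121. The gene names do not separate the methionine tRNA that starts translation from the one used within proteins, but the repeat annotation of the same stacks does. It named the initiator in 7 stacks with 35730 reads and the other methionine tRNA in 2 stacks with 48 reads. Both of the latter lay over 1 gene, chr6.tRNA92-MetCAT. RefSeq lists 19 genes of methionine CAT, and the stacks named 8.

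Selenocysteine tRNA, which reads a UGA stop codon in selenoproteins, had 1094 reads in 2 stacks, 1079 of them at chr19.tRNA8-SeCTCA (chr19:45981810-45981947). The 1 stack named as a suppressor, chr17.tRNA17-SupTTA (chr17:58863593-58863658), had 134 reads and a lysine name in the repeat annotation, and chr8.tRNA8-Undet??? (chr8:99153504-99153524), of undetermined isotype, had 5. Genes named as pseudogenes had 44 stacks and 48888 reads, 1.65% of the reads outside the ValTAC stack, with a median of 29.5 reads. Of these reads 30808 lay over chr4.tRNA5-PseudoTTA (chr4:7325851-7325917), the eighth highest stack of all. It carried the repeat name MIRb, a SINE element, in place of a tRNA name, and lay opposite an intron of SORCS2. The next pseudogene, chr1.tRNA91-PseudoCCC, had 11974 reads.

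**Figure D2:**
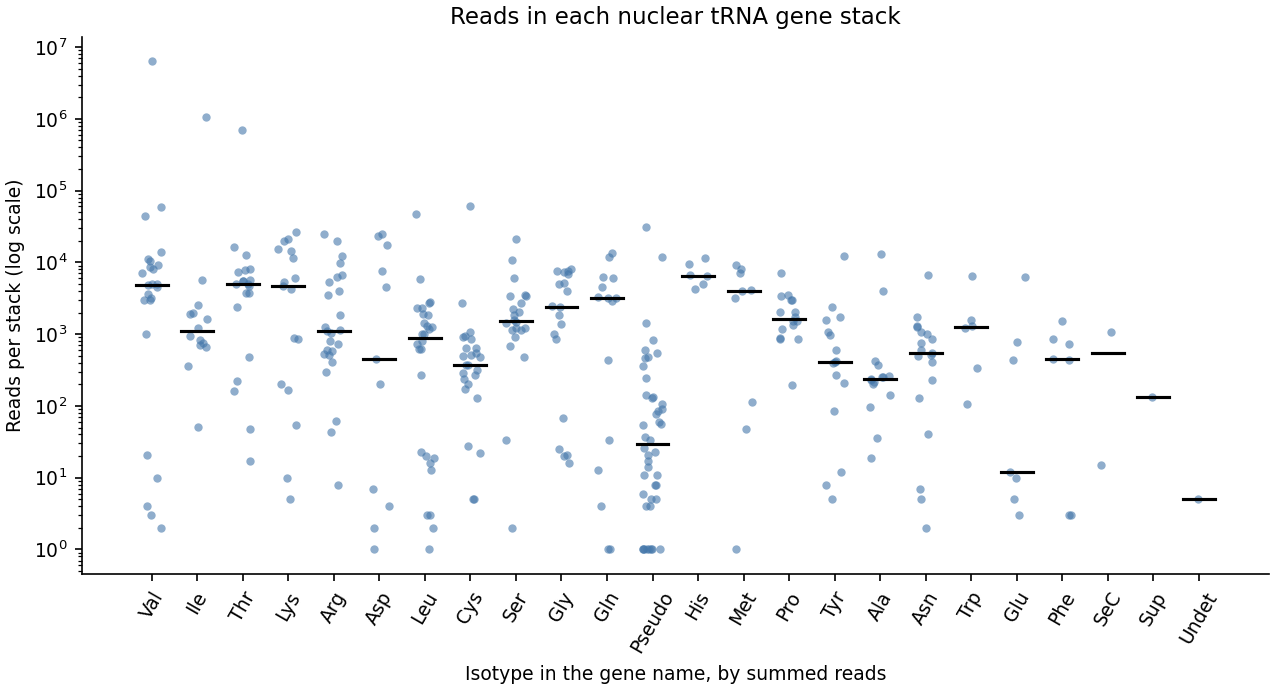
Reads per stack on a log scale for every nuclear tRNA gene stack, grouped by isotype in the order of summed reads; each point is 1 stack and each black line the median of its isotype. The stacks of chrX.tRNA4-ValTAC (6347216), chr6.tRNA55-IleTAT (1064393) and chr19.tRNA4-ThrAGT (692310) stand above all others, and the median is highest for histidine (6499.5).

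The reads of an anticodon were set beside the number of its genes in RefSeq, which lists 443 nuclear tRNA genes over 48 anticodons on GRCh38.p14. Only the names and lengths were used, since the builds differ. Valine TAC has 5 genes there, isoleucine TAT 5 and threonine AGT 9, against 29 for cysteine GCA and 26 for asparagine GTT. Over the 47 anticodons with a stack, Spearman's rho between the number of genes and the reads was 0.20; anticodons share libraries and read placement, and the value is a description. The 1 RefSeq anticodon without a stack was isoleucine GAT with 3 genes.

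Chromosome 6 held 93 of the stacks and chromosome 1 held 65, followed by 35 on chromosome 17 and 27 on chromosome 16. Chromosome X had 2 stacks, of which chrX.tRNA2-LeuTAA had 23 reads. Without the 3 leading stacks, chromosome 6 held 22.9% of the reads, chromosome 17 held 15.9%, chromosome 16 held 13.8% and chromosome 1 held 11.6%. The repeat annotation gave the same isotype as the gene name in 308 of 321 stacks named for 1 of the 20 amino acids, and the other 13 held 14635 reads. On the other strand, opposite nuclear tRNA genes, lay 77 stacks with 215 reads, 0.00231% of the reads of both strands (0.00201 to 0.00264), of which 41 had 1 read and the highest had 31. Opposite chrX.tRNA4-ValTAC there were 2 reads.

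The stacks reached beyond the genes. The only RefSeq gene of valine TAC on chromosome X is 73 bases long, and the stack there spanned 119 bases. Of 323 stacks whose isotype and anticodon are in RefSeq, 242 were longer than the longest RefSeq gene of the same anticodon. Stack length minus the length of that gene had a median of 42 bases over all 323, with shorter stacks counted as negative. The excess was 103 bases at chr6.tRNA55-IleTAT, with 197 bases against at most 94, and 63 bases at chr19.tRNA4-ThrAGT, with 137 against 74. It was 130 at chr16.tRNA27-LeuTAG, 143 at chr17.tRNA2-LysTTT and 20 at chr1.tRNA86-ArgTCT. The list gives no read counts within a stack, so the share of reads in the flanks is unknown. Length went with depth. Among stacks of under 100 reads 1 of 63 was longer than the gene, among those of 100 to under 1000 reads 77 of 94, of 1000 to under 10000 reads 133 of 135, and of at least 10000 reads 31 of 31.

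**Figure D3:**
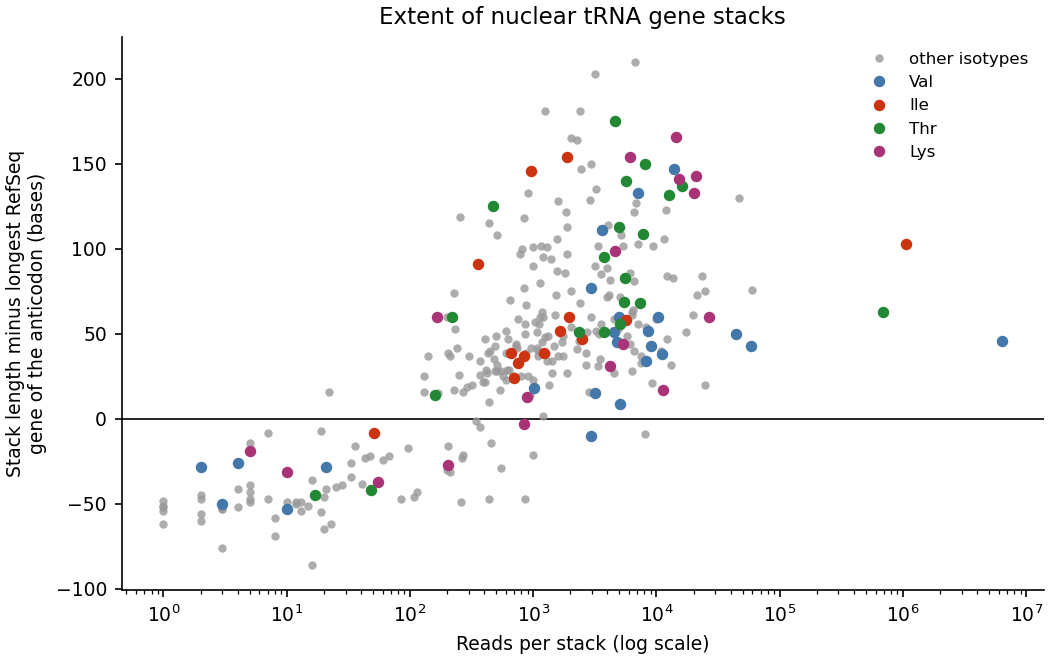
Stack length minus the longest RefSeq gene of the same anticodon (bases) against reads per stack on a log scale, for 323 stacks; colours mark valine, isoleucine, threonine and lysine, and the line at 0 marks equal length. Of the stacks under 100 reads 1 of 63 lies above the line, and all 31 of at least 10000 reads do.

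At like depth nuclear tRNA stacks were longer than other stacks. Among stacks of 1000 to under 10000 reads the median length was 135 bases in 136 nuclear tRNA stacks (130 to 142). It was 28 in 146 miRNA precursor stacks (27 to 32) and 26 in 259 other stacks (25 to 27). These are 95% intervals of the median from binomial ranks and do not give the spread between stacks. The quartiles of length were 122.5 and 173.25, 26 and 59.5, and 23 and 41.5 in the same order. The median entropy score, which the file names as the total entropy of a stack, was 1.92, 0.44 and 0.38 in the same order. Above 10000 reads the median length was 147 bases in 33 nuclear tRNA stacks (123 to 178) and 82 in 175 miRNA precursor stacks (76 to 84). Stacks are not replicates, so these differences were not tested.

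In 22 genes the reads fell into 2 stacks with a gap of 1 to 39 bases between them, and a stack of each pair lay nearer the 5′ end of the gene by its strand. The side nearer the 5′ end had more reads in 11 genes, the other side in 9, and 2 were equal. Only 7 of these genes had at least 100 reads over both stacks, 3 of them with more on the 5′ side. At chr16.tRNA25-GlyGCC the 5′ side had 8058 reads and the 3′ side 25, and at chr6.tRNA17-TyrGTA 211 and 84. At chr8.tRNA6-AlaAGC the 5′ side had 96 and the 3′ side 370, and at chr7.tRNA1-TrpCCA 107 and 341.

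Edits are a count that the list gives for each stack, taken here from the name of the field as differences of the reads from the genome; the list does not say of what kind. Over all nuclear tRNA reads there were 0.165 edits per read, against 0.162 in miRNA precursor stacks and 0.448 in the other stacks. The median per stack gave another order: among stacks of at least 100 reads it was 0.167 in nuclear tRNA, 0.150 in miRNA precursor and 0.143 in other stacks. The upper quartile was 0.252 in nuclear tRNA stacks and 0.613 in those other stacks. By read class, this order of medians held only from 100 to under 1000 reads, with 0.204, 0.140 and 0.139. From 1000 to under 10000 reads the medians were 0.156, 0.153 and 0.168. At 10000 reads or more they were 0.164, 0.159 and 0.186, so the other stacks were highest in both deeper classes. The 3 leading stacks were close to each other, with 0.161 at chrX.tRNA4-ValTAC, 0.154 at chr6.tRNA55-IleTAT and 0.160 at chr19.tRNA4-ThrAGT. Among the 275 stacks of at least 100 reads the lower quartile was 0.129, and 22 stacks had at least 0.5. The highest values were 0.988 at chr2.tRNA12-PseudoCTC (480 reads), 0.987 at chr2.tRNA13-AlaCGC (13227 reads), 0.899 at chr16.tRNA4-ProAGG (198 reads), 0.837 at chr1.tRNA137-Pseudo??? (129 reads) and 0.823 at chr15.tRNA7-GlnCTG (13526 reads). The lowest were 0.044 at chr6.tRNA175-SerGCT, 0.051 at chr6.tRNA42-GlnCTG, 0.0537 at chr17.tRNA2-LysTTT, 0.0538 at chr14.tRNA20-ThrTGT and 0.0667 at chr17.tRNA18-ArgCCT.

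Copies of one anticodon could thus lie at both ends. Glutamine CTG had 0.823 and 0.771 edits per read in its leading stacks, chr15.tRNA7-GlnCTG and chr6.tRNA146-GlnCTG, and 0.051 at chr6.tRNA42-GlnCTG. Alanine as a whole had 0.724 edits per read, since chr2.tRNA13-AlaCGC held most of its reads, and glutamine had 0.447. Without stacks of at least 0.5 edits per read, the share of alanine in nuclear tRNA reads was 0.0655%, against 0.214% over all stacks. That of glutamine was 0.325%, against 0.597%, and that of selenocysteine was 0.000162%, against 0.0117%. The leading isotypes moved little, to 70.7% for valine, 11.7% for isoleucine and 8.49% for threonine.

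**Figure D4:**
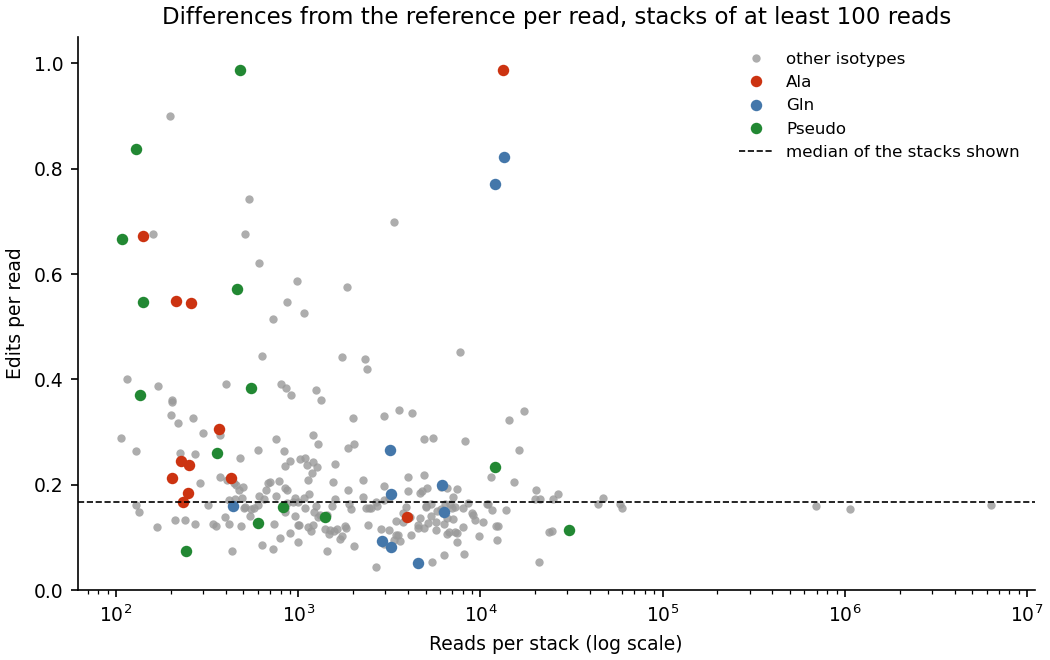
Edits per read against reads per stack on a log scale for the 275 nuclear tRNA stacks of at least 100 reads; colours mark alanine, glutamine and pseudogene names, and the dashed line is the median of these stacks (0.167). The 3 leading stacks lie between 0.154 and 0.161, while chr2.tRNA13-AlaCGC (0.987), chr15.tRNA7-GlnCTG (0.823) and chr6.tRNA146-GlnCTG (0.771) stand apart among those above 10000 reads.

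Only 1 stack over a tRNA gene was kept out by its miRNA name. It lay over chr17.tRNA7-SerGCT at chr17:8090149-8090345, also carried hsa-mir-4521 and had 9245 reads, more than any serine GCT stack that was kept (at most 6113). The counts by library are of the miRNA precursor and do not divide the 9245 reads of that stack, whose libraries are not named. In these counts, mir-4521 had 21 in AGO3 and 163 in AGO2. Its log2 ratio of AGO3 over AGO2 was −2.74 (−3.50 to −2.11) after scaling to all precursor counts. Of 411 precursors that reached 100 counts in the sum of AGO3 and AGO2, 8.76% lay 2-fold or more lower in AGO3, and 24.6% differed by that much in either direction. Of the entries linked to tRNA, 6 reached that sum, and 3 of them differed by 2-fold or more: mir-4521, mir-3676 and mir-1260a. The entry mir-3676 had 564 counts in AGO3 and 3719 in AGO2, a log2 ratio of −2.53 (−2.66 to −2.40). The entry mir-1260a had 7326 counts in AGO3 and 3929 in AGO2, a log2 ratio of 1.09 (1.03 to 1.15). The others were nearer to 0, with 0.56 for mir-4454 (2325 in AGO3 and 1803 in AGO2), 0.44 for mir-1260b (785 and 659) and 0.20 for mir-720 (824 and 816). Scaling by median-of-ratios size factors in place of all precursor counts gave −2.93 for mir-4521. That scaling was not applied to the remaining entries. Since mir-1260a lies close to the 2-fold limit, the number of entries past it holds for the main scaling only. The 2 libraries were made with different 3′ adapters, so protein and adapter cannot be told apart, and these ratios have no replicate check.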

How the data were processed

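Per the file headers, the deposited tables by library hold raw counts per miRNA precursor; the deposited stack list gives the read count of each stack, its position, annotation and edits, and an entropy score, named so in the authors' file fields. The submitters' processing notes list Bowtie2 2.1.0 and hg19 but assign them no step. How the authors built stacks and placed reads with several matches is stated in no source used here. The list also carries uniqueness items for each stack, but what they measure is not stated and they were not used.

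Members and lists were chosen with earlier results of these data known. Reads were summed by isotype and anticodon, with and without the chrX ValTAC stack, and shares got exact (Clopper-Pearson) 95% intervals. Intervals of medians came from binomial ranks. The log2 ratio of AGO3 over AGO2 used shares of all precursor counts, 3055417 in AGO3 and 3485257 in AGO2, a pseudocount of 0.5 scaled to library size and a minimum of 100 counts. Named were all isotypes with their highest stack, the 15 anticodons and the 15 stacks with the most reads, the 5 highest and 5 lowest stacks by edits per read, and stacks kept out by a miRNA name; further copies of anticodons were chosen after their values were seen. RefSeq (GRCh38.p14) gave tRNA gene numbers and lengths by anticodon for 323 of the 369 stacks. The sums and ratios were tested on simulated data. The simulation drew counting error only, so it checks the calculation and not PCR copies or the placement of reads among gene copies. The tools were pandas 2.3.3, numpy 2.4.6 and scipy 1.17.1 under Python 3.11.15, with matplotlib 3.10.9 for figures.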

Additional observations from a re-analysis of the deposited data

How the results depend on the processing

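The order of isotypes rests on single stacks. Without the chrX ValTAC stack the share of valine moved to 6.86%, isoleucine to 36.5% and threonine to 26.5%, the share of nuclear tRNA in all stack reads to 4.76% and the number of stacks that hold 90% of the reads to 72. Without the 3 stacks with the most reads these isotypes had 16.8%, 1.59% and 7.76%. By the median reads per stack, as a share of the sum of medians, valine had 11.8%, isoleucine 2.64% and threonine 12.1%, and histidine led with 15.7%. Stacks under 0.5 edits per read gave 70.7%, 11.7% and 8.49%, and leaving out pseudogene names gave 70.7%, 11.7% and 8.49%; the share of isoleucine outside the ValTAC stack, 36.5%, became 37.2% and 37.1% in these settings. The share of nuclear tRNA was 59.2% of the reads outside miRNA precursors, 13.7% over stacks of at least 10 reads and 14.0% over stacks under 0.5 edits per read. The share of the ValTAC stack was 68.5% under 0.5 edits per read and 85.7% without stacks that carry another transcript class, which leaves out the isoleucine and threonine stacks next in rank. The median length of 115 bases was 121 in stacks of at least 10 reads and 127 in those of at least 100, and the median entropy score of 1.41 was 1.56 and 1.69. The other alternatives for these results, including all of those for mir-4521, stayed within the 95% interval of the value given (from counting for shares and ratios, from ranks over stacks for medians) or within 1.5 times a count. Some of these could not change a value. Each stack carries 1 tRNA name, so taking the first name left every share as it was. The counts of mir-4521 pass the main minimum, so a lower minimum or none left its ratio as it was. The other entries linked to tRNA were not put through the alternatives. No paired analysis was possible because each protein has 1 library and the stack list does not separate the proteins. Depth limits the small stacks, since length and edits of a stack under 100 reads rest on few reads.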
